A study of Mus musculus with 6 samples.

Results

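The endoplasmic reticulum (ER) chaperones and the genes of the unfolded protein response (UPR) were followed across the cell classes of mouse dorsal skin sorted by a Cdh5-CreERT2 lineage label. The set was chosen by name, as 34 gene symbols, and was found in 35 of the 32285 rows of the count matrix. The additional row is a second gene model with the symbol Ddit3, which held 0 UMIs and overlaps the first, so that the count of Ddit3 is uncertain to that extent. Transcripts were counted as unique molecular identifiers (UMIs) by droplet single-cell RNA-seq of tdTomato+ cells, in 6 libraries of 1 mouse each. The 2 WT telogen mice were taken at postnatal day (PD) 20 and the 2 WT anagen mice at PD 32. All 4 carried tdTomato;Cdh5-CreERT2;Krt14-H2BGFP on a C57BL/6;CD1 background, and their GFP- cells were sorted. The 2 Alk1 KO telogen mice were taken at PD 25 and carried Alk1 flox/flox;tdTomato;Cdh5-CreERT2 on C57BL/6, without the Krt14-H2BGFP allele. All 6 mice received 200 µg/g tamoxifen at PD 17, which turns on Cre recombinase under the Cdh5 (VE-cadherin) promoter. It therefore labels, and in the KO deletes Alk1 in, any cell that expressed Cdh5, endothelial or not. The genotype field of the labels reads wild type for the KO mice too, and their group was taken from their titles. The study describes the KO libraries as an earlier data set of its authors. Age, strain, the Krt14-H2BGFP allele, the time since tamoxifen and the data set differ between the KO and the WT telogen mice. They cannot be told apart from the deletion. Age and the time since tamoxifen also differ between the WT telogen and WT anagen mice and cannot be told apart from the stage. Sex was not considered in the study's design and could differ between the groups as well. Both comparisons share the WT telogen libraries.

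Proteins bound for the cell surface or the matrix enter the ER through the Sec61 channel, where Hspa5 (BiP) and other chaperones hold them, lectin chaperones and disulfide isomerases fold them, and proteins that fail are sent out for degradation. When the load of unfolded protein exceeds the folding capacity, the sensors IRE1, PERK and ATF6 are activated. They raise chaperone genes through the spliced form of Xbp1 and through cleaved Atf6, and slow translation while raising Atf4, Ddit3 (CHOP) and Trib3. Cells that secrete much matrix, such as fibroblasts, are known for abundant ER and high chaperone levels.

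Promoters of many of these genes hold the ER stress response element, a CCAAT box and a CCACG box spaced apart, and shorter relatives of it. They are shown because the genes that carry it did not all move alike in the comparisons that follow. The promoter window ran from 250 bases before to 50 bases after each RefSeq gene start (GRCm38.p6), and 28 of the 34 genes were matched. ERSE is a CCAAT box followed after 9 bases by a CCACG box, searched on both strands. It was found in 8 of the 28, against 0.1369% of the 27025 genes with a promoter in the set searched. ERSE-II, an ATTGG box and a CCACG box with 1 base between them, was found in 2 of the 28, against 0.0444% of those genes. The UPRE letters TGACGTGG were found in 1 (0.7142%) and the ATF4 letters TGATGCAA in 1 (1.032%). The CCACG box is common to ERSE and ERSE-II, and its reverse complement lies within the UPRE letters. A match describes the letters only. Sequences run 5′ to 3′ on the strand of the gene, with the match in capitals. For Calr, Creld2 and Kdelr3 the motif lies on the opposite strand, and the capitals are its reverse complement.
Hspa5, ERSE, chr2:34772013-34772055, + strand: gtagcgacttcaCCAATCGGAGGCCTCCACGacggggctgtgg
Hsp90b1, ERSE, chr10:86705626-86705668, - strand: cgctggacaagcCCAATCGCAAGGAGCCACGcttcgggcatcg
Calr, ERSE, chr8:84847063-84847105, - strand: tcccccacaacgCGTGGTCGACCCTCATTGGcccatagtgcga
Canx, ERSE, chr11:50325788-50325830, - strand: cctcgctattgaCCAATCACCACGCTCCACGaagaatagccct
Pdia6, ERSE, chr12:17266479-17266521, + strand: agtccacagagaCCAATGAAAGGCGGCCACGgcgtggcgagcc
Dnajc3, ERSE, chr14:118937815-118937857, + strand: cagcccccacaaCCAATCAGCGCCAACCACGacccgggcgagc
Creld2, ERSE, chr15:88819508-88819550, + strand: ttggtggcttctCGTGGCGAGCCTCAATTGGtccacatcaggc
Syvn1, ERSE, chr19:6046520-6046562, + strand: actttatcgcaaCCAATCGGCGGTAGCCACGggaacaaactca
Herpud1, ERSE-II, chr8:94386365-94386399, + strand: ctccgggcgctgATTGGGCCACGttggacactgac
Kdelr3, UPRE, chr15:79516366-79516397, + strand: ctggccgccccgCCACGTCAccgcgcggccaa

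Libraries held 10615358 to 43317677 UMIs, with the KO libraries the shallowest, and 20941 cells were kept in all. Median UMIs per kept cell ran from 4371 to 6935. Library pairs shared 2 to 13 cell barcodes, at most 0.32% of the smaller library. Clusters formed without these genes were named from marker genes, with the suffix -like, and every value is a sum of UMIs per library and class. Blood ECs numbered 526 and 555 cells in WT telogen, 2076 and 2649 in anagen and 609 and 641 in the KO. KO sums were small in the perineurial-like (80 and 55 cells), fibroblast-like (34 and 57) and pericyte-like (64 and 37) classes. The transcript of the targeted gene, Acvrl1, stood in blood ECs at 178 and 154 CPM in the WT telogen libraries, 139 and 157 in the WT anagen libraries and 145 and 131 in the Alk1 KO libraries. Both KO libraries lay below both telogen libraries there, and the difference was not called (-0.28 ± 0.14, adjusted p = 0.152). Acvrl1 was called lower in KO fibroblast-like (-1.26 ± 0.36) and pericyte-like cells (-1.86 ± 0.45), and was not called in lymphatic (-0.22 ± 0.19) or perineurial-like cells (-0.91 ± 0.81, from 4 and 0 KO UMIs). A tag at the 3′ end can lie outside the deleted part, so these values do not check the labels. Cdh5, whose promoter drives the Cre, stood at 749.8 to 974 CPM in the WT blood EC sums, 317 to 369 in lymphatic, 191 to 268 in perineurial-like and 148 to 515 in pericyte-like sums, but at 22.6 to 45.6 in fibroblast-like and 8.77 to 44.5 in myeloid-like sums. The study regarded the fibroblasts and immune cells as Cdh5-negative contaminants of the sort, so the label, and in the KO the deletion, cannot be assumed for these classes. In the KO, Cdh5 stood at 8.62 and 0 CPM in fibroblast-like and at 15.4 and 157 in pericyte-like cells. Since RNA is summed over cells, a share of UMIs says nothing about the amount of RNA per cell.

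The 34 genes together held more of the UMIs of fibroblast-like cells than of blood ECs. Over the 4 WT libraries the share was 0.956% ± 0.153 in fibroblast-like cells and 0.651% ± 0.076 in blood ECs (SD, n = 4). It was 0.767% ± 0.130 in myeloid-like, 0.724% ± 0.085 in perineurial-like, 0.650% ± 0.067 in pericyte-like and 0.624% ± 0.050 in lymphatic cells. In fibroblast-like cells the share was 1.13% and 1.04% in telogen, 0.823% and 0.834% in anagen and 0.599% and 0.540% in the KO. In blood ECs it was 0.737% and 0.692%, 0.591% and 0.584%, and 0.634% and 0.559%. Both telogen libraries stood above all other libraries in each of these 2 classes, and the same held in the other 4 classes.

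**Figure D1:**
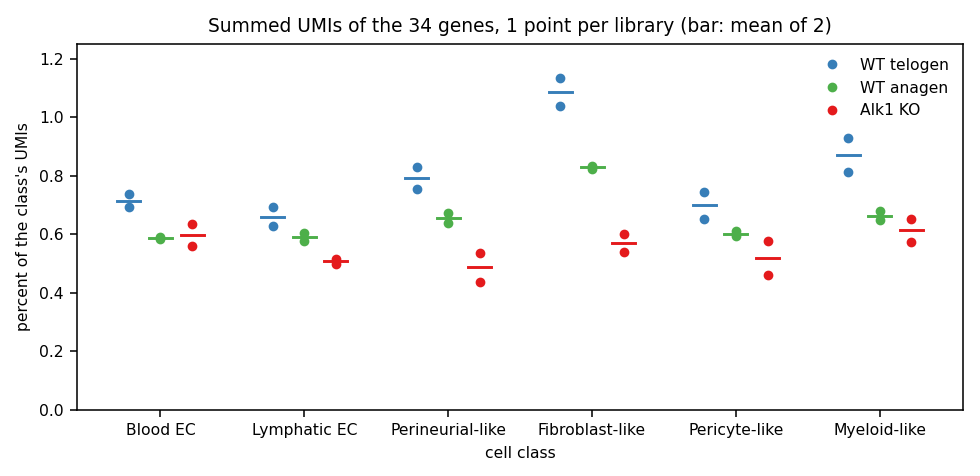
Summed UMIs of the 34 genes as a percent of all UMIs of each cell class (y axis), by class (x axis), with 1 point per library and a bar at the mean of 2. The 2 WT telogen points (blue) lie highest in every class, from 0.628% in lymphatic ECs up to 1.13% in fibroblast-like cells, and the widest drop to the KO points (red) is in fibroblast-like cells.

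Differences between classes were tested within the 4 WT libraries, with the library as a block, by the edgeR quasi-likelihood F test with p-values adjusted across every gene (Benjamini-Hochberg), and a difference was called when the fold change was above 1.3 with an adjusted p below 0.05. Against blood ECs, fibroblast-like cells had 23 of 34 members higher and 2 lower, where 27.9% of all genes tested were called higher and 27.7% lower. The median log2 fold change was 0.69 over the members tested and -0.03 over all genes tested. In myeloid-like cells 21 members were higher and 4 lower, with a background of 30.7% and 31.8%. In lymphatic ECs the balance was the other way, with 4 members higher and 13 lower (24.6% and 24.2% of all genes). Perineurial-like cells had 7 higher and 6 lower (32.5% and 30.9%), and pericyte-like cells 2 and 2 (16.8% and 15.3%). With the KO libraries added, 16 members instead of 25 were called in fibroblast-like cells and 9 instead of 17 in lymphatic ECs. The share of all genes called in that fit is not given, so these counts do not set the members apart from other genes.

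Printed levels are scaled within each class and share no scaling for composition between classes. The log2 fold changes between classes come from fits with common factors over both classes. The retrieval receptors differed most between fibroblast-like cells and blood ECs. Kdelr2 and Kdelr3 encode receptors that return escaped ER proteins from the Golgi. The mean level of Kdelr3 in the 4 WT libraries was 218 ± 51.1 CPM in fibroblast-like cells and 10.6 ± 3.95 in blood ECs (SD, n = 4), with every fibroblast-like library above every blood EC library (log2 fold change 4.60 ± 0.16 SE, adjusted p = 2.18e-09). Kdelr3 was also higher in perineurial-like (2.84 ± 0.20) and pericyte-like cells (1.69 ± 0.28), and lower in lymphatic ECs (-0.81 ± 0.26) and myeloid-like cells (-3.03 ± 0.38). Kdelr2 stood at 598, 442, 478 and 476 CPM in the fibroblast-like sums and 134, 124, 157 and 138 in the blood EC sums (log2 fold change 2.02 ± 0.12 SE, adjusted p = 1.55e-07). It was lower than in blood ECs in myeloid-like cells (-0.68 ± 0.14) and in lymphatic ECs (-0.52 ± 0.11).

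All 7 translocation members, which form or assist the channel into the ER, were higher in fibroblast-like cells than in blood ECs. Sec61b, the beta subunit of the Sec61 channel, stood at 836, 745, 345 and 579 CPM in the fibroblast-like sums and at 253, 248, 200.0 and 272 in the blood EC sums (log2 fold change 1.47 ± 0.16 SE, adjusted p = 1.39e-05). The lowest fibroblast-like library lay above the highest blood EC library. The others of this group were Sec61g (1.64 ± 0.15), Ssr3 (1.41 ± 0.11), Ssr2 (1.39 ± 0.14), Ssr1 (1.34 ± 0.15), Sec61a1 (1.08 ± 0.13) and Spcs2 (0.69 ± 0.14), log2 fold changes ± SE. Sec61g and Sec61a1 are the gamma and alpha subunits, the Ssr genes encode the translocon-associated complex, and Spcs2 belongs to the signal peptidase. In myeloid-like cells 5 of these 7 were higher than in blood ECs, led by Ssr3 (1.24 ± 0.12) and Sec61b (1.05 ± 0.12), while Ssr2 was lower (-0.54 ± 0.15). Perineurial-like cells had Spcs2 (0.75 ± 0.09) and Sec61b (0.41 ± 0.11) higher. In lymphatic ECs, Sec61b (-0.51 ± 0.09), Ssr2 (-0.47 ± 0.09) and Sec61g (-0.39 ± 0.09) were lower.

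Of the lumenal chaperones and co-chaperones, Sdf2l1, which forms a complex with Hspa5 and its co-chaperones, separated the myeloid-like class. Its WT levels there were 178, 141, 128 and 145 CPM, against 31.5, 26.8, 21.6 and 24.2 in blood ECs (log2 fold change 2.98 ± 0.13 SE, adjusted p = 1.88e-06). Sdf2l1 was also higher in fibroblast-like (1.19 ± 0.14) and perineurial-like cells (0.93 ± 0.11) and lower in lymphatic ECs (-0.87 ± 0.13). Hspa5, the main ER Hsp70 chaperone, was higher in fibroblast-like (0.50 ± 0.10) and myeloid-like cells (0.93 ± 0.10), and its difference was not called in lymphatic (-0.19 ± 0.11), perineurial-like (-0.22 ± 0.09) or pericyte-like cells (0.19 ± 0.11). Hsp90b1 (GRP94) and Manf, a secreted protein that is kept in the ER by its tail, were higher in fibroblast-like cells by 1.08 ± 0.10 and 1.05 ± 0.14. Both were also higher in myeloid-like cells (0.87 ± 0.12 and 0.96 ± 0.11). Creld2, an ER protein with isomerase activity, was higher in fibroblast-like (0.70 ± 0.15), perineurial-like (0.42 ± 0.11) and myeloid-like cells (0.90 ± 0.14), and Dnajc3 (P58IPK), a co-chaperone, was higher in the same 3 classes (0.89 ± 0.11, 0.48 ± 0.10 and 0.61 ± 0.12). Hyou1, a large ER Hsp70 relative, was higher in myeloid-like cells (1.46 ± 0.17). Dnajb9 (ERdj4), a co-chaperone that restrains IRE1, was the 1 lumenal member higher in lymphatic ECs, at 315, 311, 419 and 307 CPM against 203, 168, 178 and 148 in blood ECs (log2 fold change 0.88 ± 0.11 SE, adjusted p = 1.56e-05). It was lower in perineurial-like cells (-0.58 ± 0.11). Dnajb11 (ERdj3), Manf and Creld2 were lower in lymphatic ECs, by -0.42 ± 0.10, -0.38 ± 0.09 and -0.63 ± 0.14.

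Among lectin chaperones and disulfide enzymes, Calr (calreticulin) was higher in fibroblast-like cells (0.81 ± 0.11) and myeloid-like cells (0.80 ± 0.10). The disulfide isomerases Pdia6 (1.03 ± 0.11), Pdia4 (0.96 ± 0.11) and Pdia3 (0.67 ± 0.10) were higher in fibroblast-like cells too. Pdia6 was lower in lymphatic (-0.90 ± 0.09) and pericyte-like cells (-0.48 ± 0.13), and Calr was lower in lymphatic ECs (-0.38 ± 0.09). Ero1l, the oxidase that recharges the isomerases, was lower in perineurial-like cells (-0.98 ± 0.13). Canx (calnexin), the membrane-bound lectin chaperone, was called higher only in myeloid-like cells among these 5 comparisons (0.79 ± 0.14). All 4 degradation members were higher in myeloid-like cells: the difference was 2.18 ± 0.15 for Edem1, which marks misfolded glycoproteins for removal, 1.17 ± 0.13 for Herpud1, 0.91 ± 0.19 for the ubiquitin ligase Syvn1 (HRD1) and 0.85 ± 0.18 for its partner Sel1l. Herpud1 and Edem1 were also higher in fibroblast-like cells (0.68 ± 0.16 and 0.50 ± 0.14).

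The transcription factors and stress effectors followed another order of classes. Ddit3 (CHOP) averaged 155 ± 31.3 CPM in perineurial-like cells, 114 ± 12.3 in pericyte-like cells, 81.6 ± 6.71 in lymphatic ECs and 50.7 ± 7.95 in blood ECs (mean ± SD over 4 WT libraries). It was higher than in blood ECs in perineurial-like (log2 fold change 1.44 ± 0.09 SE, adjusted p = 4.58e-07), pericyte-like (1.17 ± 0.12), myeloid-like (0.75 ± 0.15), lymphatic (0.61 ± 0.12) and fibroblast-like cells (0.43 ± 0.14). The lowest perineurial-like level, 124 CPM, lay above the highest blood EC level, 58.4 CPM. Trib3, a pseudokinase induced by Atf4 and Ddit3, stood at 25.3, 21.4, 19.8 and 24.8 CPM in lymphatic ECs and 9.40, 7.28, 7.81 and 10.4 in blood ECs (log2 fold change 1.29 ± 0.14 SE, adjusted p = 6.3e-06), with no overlap. Trib3 was lower than in blood ECs in perineurial-like (-3.69 ± 0.37), myeloid-like (-1.20 ± 0.28) and fibroblast-like cells (-1.13 ± 0.32). Ppp1r15a (GADD34), which restores translation after stress, was lower in fibroblast-like cells (-0.93 ± 0.14) and higher in lymphatic ECs (0.41 ± 0.10). Xbp1 was lower than in blood ECs in lymphatic (-1.10 ± 0.13) and pericyte-like cells (-0.60 ± 0.11), Atf4 in perineurial-like cells (-0.60 ± 0.11). Atf6 was higher in myeloid-like (1.75 ± 0.14) and fibroblast-like cells (0.61 ± 0.13) and lower in perineurial-like cells (-0.80 ± 0.12). Ppp1r15a is also raised by dissociation. Of the list of 18 dissociation and immediate-early genes, 6 were higher and 5 lower in fibroblast-like cells than in blood ECs, near the 27.9% and 27.7% of all genes. In lymphatic ECs 9 were higher and 3 lower, where 24.6% and 24.2% of all genes were. In pericyte-like cells the list held called rises of Hspa1a (1.52 ± 0.16), Nr4a1 (1.28 ± 0.11), Hspa1b (1.15 ± 0.14), Fosb, Fos, Egr1 and Junb. Atf3, Dnajb1, Btg2, Jun and Hsph1 were called higher there too, and Ier3 lower (-0.79 ± 0.17). Of all genes, 16.8% were called higher and 15.3% lower in that comparison. The part of these genes in the level of Ddit3 was not tested.

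**Figure D2:**
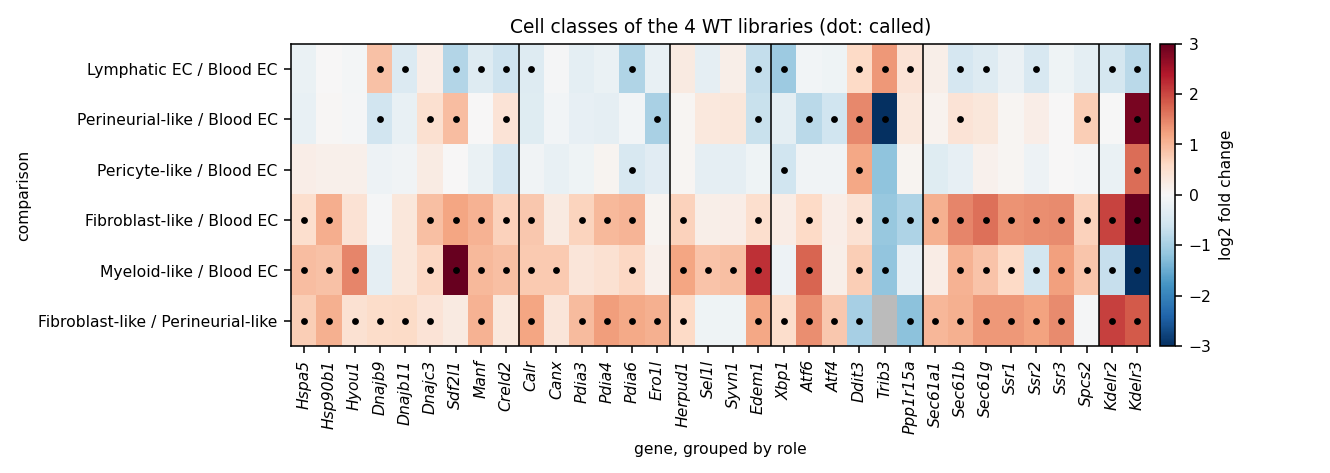
Log2 fold change of each gene (x axis, grouped by role) between cell classes of the 4 WT libraries (y axis), with dots for called differences and grey for genes not tested. The colour scale ends at 3 on the log2 scale, and the row of fibroblast-like against blood EC is mostly red with Kdelr3 beyond the scale at 4.60 ± 0.16.

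Fibroblast-like and perineurial-like cells both held matrix transcripts but differed in these genes. Of the 33 members tested, 25 were higher in fibroblast-like cells and 2 lower, where 26.8% and 25.2% of all genes were called, and the median was 0.95 over the members tested and -0.02 over all genes tested. Kdelr2 led by 2.04 ± 0.10, followed by Kdelr3 (1.83 ± 0.14) and Atf6 (1.40 ± 0.12). The 2 that were lower were the stress effectors Ppp1r15a (-1.23 ± 0.12) and Ddit3 (-1.0 ± 0.11). Beside these values, the secreted matrix genes made up 7.10% to 10.1% of UMIs in the WT fibroblast-like sums and 1.19% to 1.52% in the WT perineurial-like sums.

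Some calls between classes were lost when 1 library was left out, given here with the log2 fold change that remained. For lymphatic against blood ECs these were Kdelr3 (-0.60) without WT telogen S1, Calr (-0.34), Manf (-0.33), Sec61g (-0.34) and Kdelr3 (-0.62) without WT telogen S2, Ppp1r15a (0.31) without WT anagen S1, and Calr (-0.36) and Manf (-0.37) without WT anagen S2. For perineurial-like cells they were Sec61b (0.33) without WT telogen S1, Sec61b (0.34) without WT telogen S2, and Creld2 (0.36) without WT anagen S1. For fibroblast-like cells they were Edem1 (0.45) and Ddit3 (0.40) without WT telogen S1, Trib3 (-0.97) and Edem1 (0.48) without WT telogen S2, Ddit3 (0.36) without WT anagen S1, and Ddit3 (0.40) without WT anagen S2. The call of Pdia6 in pericyte-like cells was lost without WT telogen S2 (-0.53) or WT anagen S1 (-0.47), and that of Trib3 in myeloid-like cells without WT telogen S1 (-1.05). Between fibroblast-like and perineurial-like cells they were Hyou1 (0.41) without WT telogen S1, Hyou1 (0.42) without WT telogen S2, Herpud1 (0.34) without WT anagen S1, and Herpud1 (0.47) without WT anagen S2.

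Between telogen and anagen, the stages of rest and growth of the hair follicle, few members were called with 2 mice per stage. In lymphatic ECs, Sec61g stood at 157 and 155 CPM in telogen and 346 and 279 in anagen, with both anagen libraries above both telogen libraries (log2 fold change 1.0 ± 0.15 SE, adjusted p = 0.0127). It was the 1 member of 34 called higher there, where 1.31% of all genes were, and 0 were called lower, where 0.453% were (1.76% in either direction). In perineurial-like cells Manf stood at 378 and 320.0 CPM in telogen and 186 and 209 in anagen, with both anagen libraries below (log2 fold change -0.84 ± 0.14 SE, adjusted p = 0.0366). It was the 1 of 33 called lower, where 0.143% of genes were, and 0 were called higher, where 0.717% were (0.86% in either direction). The call of Manf was lost without WT telogen S1 (-0.71, adjusted p = 0.101). No member was called in blood ECs, fibroblast-like or pericyte-like cells by edgeR, where 0.00805%, 0.0543% and 0.0463% of genes were called. At an unadjusted p under 0.05 there were 8 members in blood ECs, 8 in lymphatic ECs, 18 in perineurial-like, 15 in fibroblast-like and 3 in pericyte-like cells, where 13.5%, 21.2%, 14.4%, 12.3% and 6.06% of all genes were. DESeq2 called 2 in blood ECs, where it called more of all genes as well.

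The direction between stages was nevertheless uneven. The median log2 fold change of anagen over telogen was -0.30 over the members tested and -0.01 over all genes tested in perineurial-like cells, -0.32 over the members tested and 0.00 over all genes tested in fibroblast-like cells and -0.11 over the members tested and 0.00 over all genes tested in blood ECs. Both anagen libraries lay below both telogen libraries for 16 of 34 members in blood ECs (24% of all genes), 20 of 33 in perineurial-like (22%) and 19 of 33 in fibroblast-like cells (21.4%). In lymphatic ECs 10 of 34 lay lower, against 27.2%. The opposite order was found for 2, 4 and 1 members in those classes, against 23.1%, 23.8% and 23% of all genes. With scaling factors set over all classes jointly, which were used before those set within each class were chosen, the lower counts were 15, 22 and 26, against 19.9%, 25.3% and 32% of genes, and the higher counts were 5, 4 and 1, against 27.6%, 20.2% and 15.3%. Hspa5 in blood ECs stood at 1559.5 and 1257 CPM in telogen and 1063 and 1116 in anagen. Its telogen libraries lay above both anagen libraries, and the difference did not pass the test (-0.36 ± 0.15, adjusted p = 0.365). Calr in blood ECs stood at 678 and 641 CPM in telogen and 438 and 419 in anagen, again without overlap and without a call (adjusted p = 0.2).

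In the Alk1 KO, more members were called lower than higher against WT telogen in each of the 5 classes tested. In blood ECs 13 of 34 were lower and 5 higher, where 18.6% of all genes were lower and 15.5% higher. In lymphatic ECs 12 were lower and 3 higher (13.2% and 11.9%), in perineurial-like cells 17 of 33 lower and 1 higher (11.4% and 10.2%), in fibroblast-like cells 23 of 33 lower and 1 higher (21.4% and 17.3%), and in pericyte-like cells 6 of 33 lower and 0 higher (3.43% and 3.07%). Classes were named over all libraries together, and whether the KO fibroblast-like cells are the same kind of cell as the WT ones was not tested. The median log2 fold change was -1.74 over the members tested and -0.06 over all genes tested in fibroblast-like, -0.86 over the members tested and -0.05 over all genes tested in perineurial-like, -0.37 over the members tested and 0.03 over all genes tested in lymphatic, -0.35 over the members tested and 0.00 over all genes tested in pericyte-like and -0.29 over the members tested and 0.02 over all genes tested in blood ECs. Of the members tested in all 5 classes, 30 of 33 were called in at least 1 class and 5 were lower in all 5, against 67.4% and 0.963% of the genes tested in all 5. These 5 members were Calr, Pdia3, Pdia4, Pdia6 and Sdf2l1, 4 of which are lectin chaperones or disulfide isomerases. In pericyte-like cells the calls of Calr, Pdia3, Pdia4 and Sdf2l1 did not stand whichever library was left out. The KO libraries did not overlap the telogen libraries, on the low side, for 19 members in blood, 24 in lymphatic, 23 in perineurial-like, 26 in fibroblast-like and 20 in pericyte-like cells, against 34.2%, 31.5%, 36.1%, 38.2% and 29.3% of all genes. With the joint scaling factors these counts were 19, 25, 29, 26 and 25, against 34.4%, 33.2%, 47.1%, 43.4% and 38.5% of all genes.

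**Figure D3:**
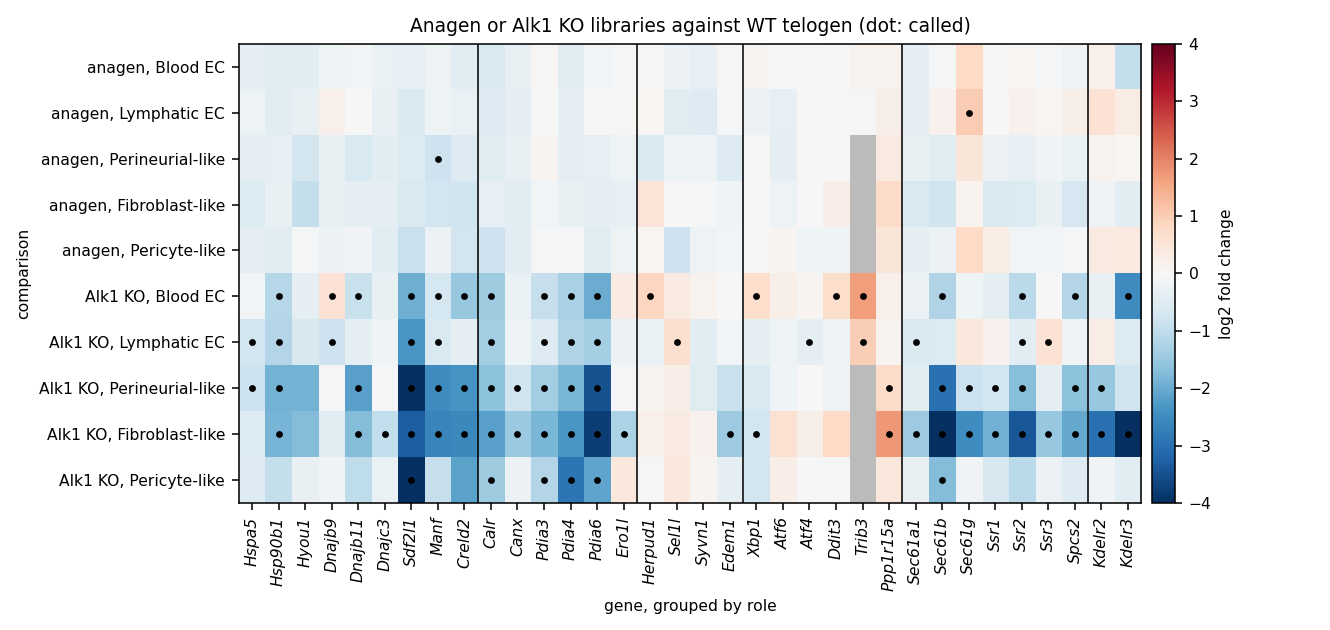
Log2 fold change of each gene (x axis, grouped by role) in the anagen or Alk1 KO libraries against WT telogen, by cell class (y axis), with dots for called differences and grey for genes not tested. The anagen rows carry 2 dots, the KO rows carry dots mostly in blue, and the colour scale ends at 4 on the log2 scale, which Sdf2l1, Sec61b and Kdelr3 exceed on the low side.

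At least 4 of the 6 disulfide enzymes and lectin chaperones were lower in every class. Pdia6, an isomerase that also acts on IRE1, stood in blood ECs at 282 and 252 CPM in WT telogen and 67.9 and 67.9 in the KO. In fibroblast-like cells it stood at 537 and 520.0 CPM in WT telogen and 25.9 and 49.2 in the KO, and in perineurial-like cells at 314 and 295 CPM in WT telogen and 21.8 and 33.4 in the KO. The KO libraries were below all telogen libraries in each. Its log2 fold change was -3.76 ± 0.31 in fibroblast-like, -3.49 ± 0.30 in perineurial-like, -2.12 ± 0.35 in pericyte-like, -1.98 ± 0.14 in blood and -1.34 ± 0.13 in lymphatic cells, with adjusted p between 4.52e-06 and 0.0204.

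Calr, which holds glycoproteins through their sugar and binds calcium, stood at 678 and 641 CPM in WT telogen and 221 and 273 in the KO in blood ECs and at 959 and 897 CPM in WT telogen and 195 and 219 in the KO in fibroblast-like cells. Both KO values were below both telogen values in each, and the log2 fold changes were -1.43 ± 0.15 and -2.17 ± 0.22, with -1.39 ± 0.13 in lymphatic, -1.65 ± 0.23 in perineurial-like and -1.43 ± 0.34 in pericyte-like cells. The log2 fold change of Pdia4 was -1.29 in blood, -1.21 in lymphatic, -1.84 in perineurial-like, -2.34 in fibroblast-like and -2.91 in pericyte-like cells. That of Pdia3, which works with Calr and Canx, was -0.94, -0.51, -1.39, -1.82 and -1.17 in the same order. Canx was lower in perineurial-like (-0.81 ± 0.21) and fibroblast-like cells (-1.50 ± 0.22), and Ero1l in fibroblast-like cells (-1.26 ± 0.42). Neither passed the test in blood ECs (Canx -0.28 ± 0.13, Ero1l 0.32 ± 0.18).

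Of the lumenal chaperones, Hspa5 was called lower in 2 of the 5 classes. In blood ECs it stood at 1559.5 and 1257 CPM in WT telogen and 1478 and 1147 in the KO, with overlap between the groups (-0.11 ± 0.17, adjusted p = 0.658). It was lower in lymphatic ECs, at 1369 and 1098 CPM in WT telogen and 699.7 and 765 in the KO (log2 fold change -0.75 ± 0.13 SE, adjusted p = 0.00287), and in perineurial-like cells, at 1501 and 1213 CPM in WT telogen and 831 and 610.3 in the KO (log2 fold change -0.87 ± 0.22 SE, adjusted p = 0.0126). Fibroblast-like cells stood at 2115 and 1637 CPM in WT telogen and 1405 and 1165 in the KO, and pericyte-like cells at 1863 and 1384 CPM in WT telogen and 919 and 1342 in the KO, with neither difference called.

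Hsp90b1 stood in blood ECs at 497 and 528 CPM in WT telogen and 228 and 238 in the KO, with no overlap (log2 fold change -1.15 ± 0.14 SE, adjusted p = 0.000251). It was lower in lymphatic (-1.16 ± 0.12), perineurial-like (-1.89 ± 0.24) and fibroblast-like cells (-1.87 ± 0.23). Manf was lower in blood (-0.71 ± 0.14), lymphatic (-0.60 ± 0.15), perineurial-like (-2.49 ± 0.26) and fibroblast-like cells (-2.64 ± 0.25). Dnajb11 was lower in blood (-0.88 ± 0.13), perineurial-like (-2.17 ± 0.32) and fibroblast-like cells (-1.74 ± 0.26), Creld2 in the same 3 classes (-1.50 ± 0.23, -2.35 ± 0.52 and -2.57 ± 0.39), and Dnajc3 in fibroblast-like cells (-0.98 ± 0.25). Sdf2l1 stood in blood ECs at 31.5 and 26.8 CPM in WT telogen and 8.61 and 6.31 in the KO, with no overlap (log2 fold change -1.97 ± 0.24 SE, adjusted p = 0.000284), and was lower in lymphatic (-2.34 ± 0.36) and fibroblast-like cells (-3.31 ± 0.39). In perineurial-like cells it was counted 2 times in the KO and 576 times in telogen, a ratio of 0.0571 with a 95% counting interval of 0.00689 to 0.207. In pericyte-like cells 0 KO UMIs faced 88 in telogen, at least 6.17-fold lower from a floor of 3 counts over the group. These intervals cover counting error alone. Hyou1 was not called in any class, with -1.89 ± 0.70 in perineurial-like cells from 3 KO UMIs (ratio 0.264, counting interval 0.0539 to 0.782). Dnajb9 went in opposite directions in the endothelium, at 315 and 311 CPM in WT telogen and 181 and 174 in the KO in lymphatic ECs (log2 fold change -0.81 ± 0.12 SE, adjusted p = 0.000822) and at 203 and 168 CPM in WT telogen and 326 and 227 in the KO in blood ECs (log2 fold change 0.57 ± 0.19 SE, adjusted p = 0.0384). The rise in blood ECs was lost without KO S1 (0.28), WT telogen S1 (0.71) or WT telogen S2 (0.43), each as a log2 fold change.

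Translocation members were lower in all 5 classes, from 1 of 7 in pericyte-like to 7 of 7 in fibroblast-like cells. Sec61b stood in fibroblast-like cells at 836 and 745 CPM in WT telogen and 57.5 and 27.1 in the KO, a difference of -4.30 ± 0.35 and the largest fall of a translocation member in any class. It stood in perineurial-like cells at 442 and 422 CPM in WT telogen and 71.6 and 28.6 in the KO (-2.98 ± 0.30) and in pericyte-like cells at 235 and 208 CPM in WT telogen and 86.1 and 42.5 in the KO (-1.74 ± 0.34). The groups did not overlap in these 3 classes. In blood ECs it stood at 253 and 248 CPM in WT telogen and 139 and 78.0 in the KO (log2 fold change -1.22 ± 0.22 SE, adjusted p = 0.00261), and in lymphatic ECs at 177 and 161 CPM in WT telogen and 144 and 87.0 in the KO, also without overlap but without a call (adjusted p = 0.0661). In anagen it stood at 200.0 and 272 CPM in blood ECs and 345 and 579 in fibroblast-like cells.

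All 7 translocation members were lower in KO fibroblast-like cells, among them Ssr2 (-3.40 ± 0.26), Sec61g (-2.49 ± 0.27), Spcs2 (-2.05 ± 0.23), Ssr1 (-1.91 ± 0.26), Ssr3 (-1.52 ± 0.29) and Sec61a1 (-1.44 ± 0.26). In perineurial-like cells 5 were lower, with Ssr2 at -1.71 ± 0.24 and Spcs2 at -1.63 ± 0.27 beside Sec61b, and Sec61g (-0.86 ± 0.22) and Ssr1 (-0.75 ± 0.25). In blood ECs Spcs2 (-1.19 ± 0.15) and Ssr2 (-1.07 ± 0.13) were lower beside Sec61b. In lymphatic ECs Sec61a1 (-0.58 ± 0.13) and Ssr2 (-0.42 ± 0.14) were lower and Ssr3 was higher (0.57 ± 0.12). Retrieval receptors fell as well. Kdelr3 stood in fibroblast-like cells at 292 and 209 CPM in WT telogen and 20.1 and 8.48 in the KO (log2 fold change -4.26 ± 0.39 SE, adjusted p = 0.000206) and in blood ECs at 14.1 and 14.0 CPM in WT telogen and 2.09 and 2.87 in the KO (log2 fold change -2.50 ± 0.34 SE, adjusted p = 0.000514), with no overlap in either. Kdelr2 was lower in fibroblast-like (-2.99 ± 0.32) and perineurial-like cells (-1.51 ± 0.28) and was not called in blood ECs (-0.29 ± 0.13).

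The transcription factors, stress effectors and degradation members held 8 of the 10 rises, 4 of them in blood ECs. Xbp1, the target of IRE1, stood there at 197 and 189 CPM in the WT telogen libraries, 178 and 233 in the WT anagen libraries and 361 and 273 in the Alk1 KO libraries. Both KO libraries were above the 4 WT libraries (log2 fold change 0.71 ± 0.16 SE, adjusted p = 0.00778). Herpud1, a membrane protein of the degradation machinery, stood at 109 and 97.6 CPM in the WT telogen libraries, 94.3 and 105 in the WT anagen libraries and 208 and 173 in the Alk1 KO libraries, again with both KO libraries highest (log2 fold change 0.87 ± 0.15 SE, adjusted p = 0.00157).

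Ddit3 stood in blood ECs at 56.7 and 45.4 CPM in the WT telogen libraries, 58.3 and 42.4 in the WT anagen libraries and 82.5 and 83.7 in the Alk1 KO libraries, with both KO libraries highest (log2 fold change 0.69 ± 0.15 SE, adjusted p = 0.0059). Trib3 stood at 9.40 and 7.28 CPM in the WT telogen libraries, 7.81 and 10.4 in the WT anagen libraries and 29.0 and 24.4 in the Alk1 KO libraries, and it was the largest rise among the members in blood ECs (log2 fold change 1.66 ± 0.24 SE, adjusted p = 0.000691). It was higher in KO lymphatic ECs too, at 25.3 and 21.4 CPM in WT telogen and 51.2 and 40.9 in the KO (log2 fold change 0.97 ± 0.19 SE, adjusted p = 0.00427). In the perineurial-like, fibroblast-like and pericyte-like sums Trib3 held too few UMIs to be tested. Without WT telogen S2, the calls of Ddit3 (0.53, adjusted p = 0.092) and Xbp1 (0.67, adjusted p = 0.079) in blood ECs were lost.

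In the other 4 classes no rise of Xbp1, Herpud1 or Ddit3 was called. Xbp1 was lower in KO fibroblast-like cells, at 212 and 199 CPM in WT telogen and 97.7 and 141 in the KO (log2 fold change -0.77 ± 0.24 SE, adjusted p = 0.0333), and was not called in lymphatic ECs, at 114 and 98.7 CPM in WT telogen and 99.4 and 66.9 in the KO, perineurial-like cells, at 192 and 166 CPM in WT telogen and 140.1 and 81.1 in the KO, or pericyte-like cells, at 134 and 129 CPM in WT telogen and 70.7 and 84.9 in the KO. Herpud1 was not called in lymphatic ECs (133 and 117 CPM in WT telogen and 102 and 105 in the KO), perineurial-like (156 and 134 CPM in WT telogen and 146 and 157 in the KO), fibroblast-like (146 and 99.6 CPM in WT telogen and 129 and 151 in the KO) or pericyte-like cells (106 and 97.4 CPM in WT telogen and 108 and 84.9 in the KO). Ddit3 was not called in these 4 classes either, at 85.1 and 81.9 CPM in WT telogen and 70.5 and 73.7 in the KO in lymphatic ECs and 71.0 and 41.5 CPM in WT telogen and 86.2 and 105 in the KO in fibroblast-like cells, and at 183 and 124 CPM in WT telogen and 156 and 95.4 in the KO in perineurial-like and 131 and 112 CPM in WT telogen and 108 and 123 in the KO in pericyte-like cells. Atf4, whose translation rises when PERK is active, was called in lymphatic ECs alone, at 458 and 422 CPM in WT telogen and 332 and 342 in the KO (log2 fold change -0.38 ± 0.12 SE, adjusted p = 0.0367), a call that was lost without WT telogen S1, WT telogen S2 or KO S1. It stood at 468 and 435 CPM in WT telogen and 530.2 and 443 in the KO in blood ECs, at 379 and 299.6 CPM in WT telogen and 398 and 253 in the KO in perineurial-like, at 518 and 421 CPM in WT telogen and 643 and 468 in the KO in fibroblast-like and at 493 and 394 CPM in WT telogen and 387 and 488 in the KO in pericyte-like cells. A level of transcript does not report splicing of Xbp1, cleavage of Atf6 or translation of Atf4.

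The WT anagen levels of the same genes were as follows. Xbp1 stood at 104 and 74.8 CPM in lymphatic ECs, 210.0 and 166 in perineurial-like, 217 and 201 in fibroblast-like and 122 and 136 in pericyte-like cells. Herpud1 stood at 155 and 109, 98.8 and 96.3, 207 and 145 and 114 and 98.9 CPM in the same order. For both, no difference from telogen was called in any class. Ddit3 stood at 72.1 and 87.4, 181 and 132, 80.9 and 55.4 and 112 and 102 CPM and Atf4 at 469 and 415, 372 and 305, 530.1 and 393 and 426 and 368, with 430.0 and 491 in blood ECs. Hspa5 stood at 1266 and 893, 1153 and 954, 1321 and 1259 and 1122 and 1373 CPM, and Sec61b at 157 and 229.9 in lymphatic, 249.5 and 368 in perineurial-like and 159 and 226 in pericyte-like cells. None of these differences between stages passed the test.

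Myeloid-like cells are listed here by their levels, since their numbers ran from 1709 cells in WT telogen S2 to 39 in KO S1 and they were not compared between groups. Hspa5 stood at 2084 and 1573 CPM in the WT telogen libraries, 1673 and 1529 in the WT anagen libraries and 1015 and 1657 in the Alk1 KO libraries, with KO S1 lowest and KO S2 within the WT range. Xbp1 stood at 132 and 123 in telogen, 143 and 114 in anagen and 99.4 and 137 in the KO, Herpud1 at 195 and 137 in telogen, 138 and 202 in anagen and 204 and 167 in the KO and Ddit3 at 58.5 and 46.4 in telogen, 74.5 and 72.7 in anagen and 70.6 and 62.6 in the KO, all in CPM. The KO libraries overlapped the telogen libraries for Xbp1 and Herpud1, while for Ddit3 both KO and both anagen libraries lay above both telogen libraries. Atf4 stood at 400.3 and 348 in telogen, 456 and 297 in anagen and 484 and 602 in the KO and Sec61b at 388 and 368 in telogen, 258 and 473 in anagen and 314 and 199 in the KO. Both KO libraries were highest for Atf4. For Sec61b both KO libraries lay below both telogen libraries, and the anagen libraries overlapped both groups.

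Ppp1r15a rose in KO fibroblast-like cells, where it stood at 191 and 199.6 CPM in the WT telogen libraries, 309 and 355 in the WT anagen libraries and 669 and 634 in the Alk1 KO libraries, with both KO libraries highest and both anagen libraries above telogen (log2 fold change 1.73 ± 0.21 SE, adjusted p = 0.000648). In perineurial-like cells it was called higher (0.76 ± 0.25), a call that was lost without WT telogen S1, WT telogen S2 or KO S1. In KO fibroblast-like cells the dissociation and immediate-early genes rose with it, 12 of 18 higher and 2 lower, where 17.3% and 21.4% of all genes were. Their share of UMIs was 1.27% and 1.16% in telogen and 3.11% and 3.02% in the KO. Fos stood there at 844 and 915 CPM in WT telogen and 4341 and 4451 in the KO. Their part in the rise of Ppp1r15a was not tested. Sel1l was higher in lymphatic ECs (0.65 ± 0.15), and was lost without WT telogen S2. Edem1 was lower in fibroblast-like cells (-1.46 ± 0.51, adjusted p = 0.0497), close to the threshold. Syvn1 and Atf6 were called in no class.

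**Figure D4:**
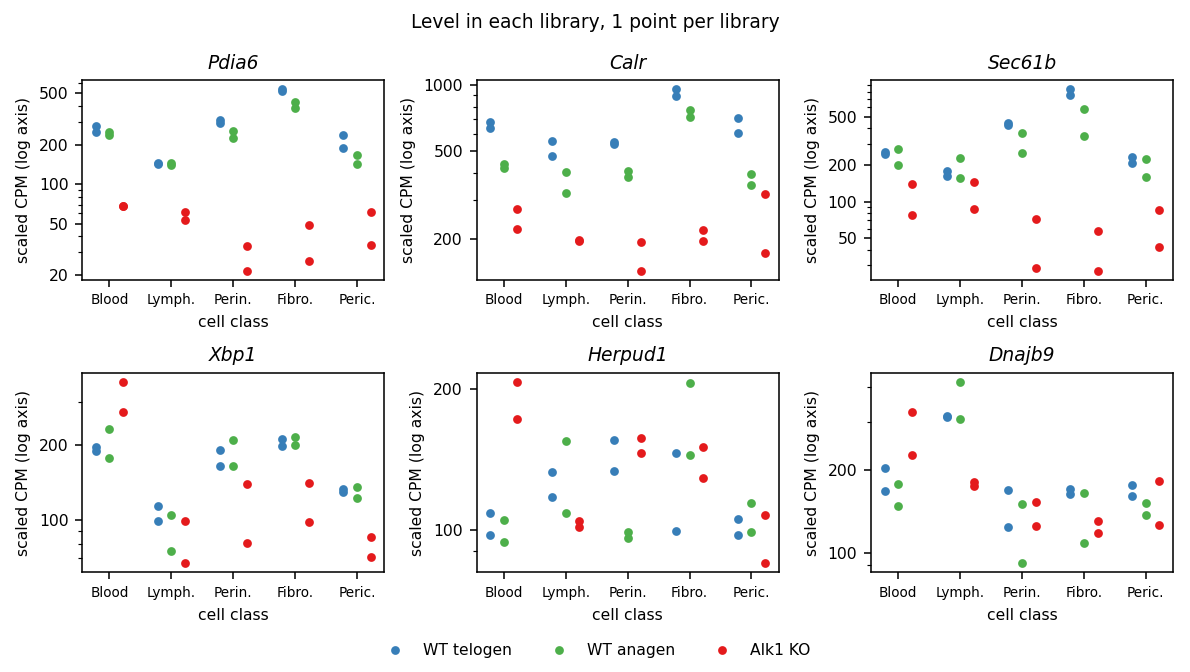
Level of 6 genes in each library (y axis, scaled CPM on a log axis) by cell class (x axis), with 1 point per library and the group in colour. Pdia6, Calr and Sec61b are lowest in the KO libraries in each class shown, while for Xbp1, Herpud1 and Dnajb9 both KO points lie highest in blood ECs and in no other class shown.

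Members with the same promoter letters differed in the KO. Of the 8 genes with an ERSE, Calr, Pdia6, Hsp90b1 and Creld2 were lower in KO blood ECs, while Hspa5, Canx, Dnajc3 and Syvn1 were not called. In fibroblast-like cells 6 of the 8 were lower, with Hspa5 and Syvn1 not called. Of all members tested, 13 of 34 were lower in blood ECs (18.6% of all genes) and 23 of 33 in fibroblast-like cells (21.4%). No difference between members with and without an ERSE was tested. Of the 2 with an ERSE-II, Herpud1 was higher in KO blood ECs and Dnajb11 lower. These 2 promoters are not alike otherwise, since Herpud1 also holds the ATF4 letters and the ERSE-II of Dnajb11 lies after the gene start. Kdelr3, with the UPRE letters, was lower in blood ECs and fibroblast-like cells.

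Within blood ECs the artery-like, capillary-like and vein-like cells were also fitted alone, and most of the falls were found in each. The log2 fold change of Pdia6 was -2.15 ± 0.21 in artery-like, -2.20 ± 0.22 in capillary-like and -1.97 ± 0.20 in vein-like cells. Hspa5 stood in capillary-like cells at 789.6 and 743 CPM in the WT telogen libraries, 547 and 603 in the WT anagen libraries and 257 and 223 in the Alk1 KO libraries, with both KO libraries lowest, and fell there (-1.69 ± 0.19), while it did not pass the test in artery-like (-0.43 ± 0.19) or vein-like cells (0.03 ± 0.18). In capillary-like cells Xbp1 (1.34 ± 0.20), Herpud1 (1.02 ± 0.22) and Trib3 (2.68 ± 0.46) were higher and Ppp1r15a was lower (-1.11 ± 0.21). In vein-like cells Ddit3 (1.02 ± 0.25), Atf6 (1.04 ± 0.27), Herpud1 (0.67 ± 0.18) and Trib3 (1.51 ± 0.37) were higher. The rise of Ddit3 over all blood ECs was not called in the artery-like (-0.17 ± 0.28) or capillary-like cells (-0.095 ± 0.30). Differences between these subtypes were not tested, and they hold only part of the blood ECs.

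The difference of the KO response between classes was tested as an interaction. Against blood ECs, perineurial-like cells had 11 of 34 members with a more negative response and 1 with a more positive one, where 3.65% and 3.7% of genes were called. Among them were Sec61b (-1.87 ± 0.31), Manf (-1.83 ± 0.29), Pdia6 (-1.55 ± 0.39), Xbp1 (-1.39 ± 0.25) and Dnajb11 (-1.33 ± 0.42). Lymphatic ECs had 10 members with a more positive and 6 with a more negative response, against 11.5% and 11.1% of genes. The more negative ones included Dnajb9 (-1.39 ± 0.18), Herpud1 (-1.17 ± 0.17), Xbp1 (-1.09 ± 0.16) and Ddit3 (-0.93 ± 0.18). With any single library left out, 3 of the 12 calls in perineurial-like cells (Manf, Sec61b and Xbp1) and 5 of the 16 in lymphatic ECs (Dnajb9, Ddit3, Herpud1, Spcs2 and Xbp1) stood. For the stage, 0 members were called by edgeR in either interaction.

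Among related genes outside the set, more were called lower than higher in the KO. Of 24 other folding and quality-control genes tested, 12 were lower and 1 higher in blood ECs, 15 lower and 0 higher in fibroblast-like, 11 lower and 3 higher in perineurial-like, 6 lower and 1 higher in lymphatic and 1 of 22 lower in pericyte-like cells. Of all genes, 18.6% were called lower in blood, 21.4% in fibroblast-like, 11.4% in perineurial-like, 13.2% in lymphatic and 3.43% in pericyte-like cells. The largest falls in blood ECs were of Fkbp2, Sil1 and Ppib, and in fibroblast-like cells of Pdia5, Fkbp14 and Ppib. Of 24 other translocation and glycosylation genes, 15 were lower in fibroblast-like, 11 in blood and 11 in perineurial-like cells, 5 in lymphatic (with 3 higher) and 4 in pericyte-like cells. Of the sensors and their proteases, at most 1 was higher and 1 lower in any class, with Eif2ak4 higher and Atf6b lower in blood ECs among 6 tested. Of the ATF4 targets, Ddit4 was higher in blood, lymphatic, perineurial-like and fibroblast-like cells, and 4 of 17 were lower in blood ECs, among them Asns, Vldlr and Wars. Between stages none of the 4 lists had more than 1 gene called in any class.

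Other lists are given for the KO as well. Of all genes, 18.6% were called lower in blood, 13.2% in lymphatic, 11.4% in perineurial-like, 21.4% in fibroblast-like and 3.43% in pericyte-like cells. The secreted matrix genes were lower in 8 of 11 tested in blood, 11 of 13 in lymphatic, 9 of 14 in perineurial-like, 9 of 14 in fibroblast-like and 8 of 13 in pericyte-like cells. Their share of UMIs in fibroblast-like cells was 10.1% and 9.08% in telogen and 0.730% and 0.731% in the KO. Col3a1, the collagen III chain, stood there at 27219 and 28298 CPM in WT telogen and 396 and 348 in the KO. The share of the matrix genes in the KO fibroblast-like sums lay below that in the WT perineurial-like sums. The class name therefore rests mostly on the WT cells, and its fit to the KO cells was not tested. Myeloid markers in blood ECs, a sign of RNA of other cells, fell from 0.0113% and 0.0157% of UMIs to 0.000867% and 0.00155%, with 7 of 7 tested lower, and from 0.00971% and 0.0226% to 0.000954% and 0.00144% in lymphatic ECs. In perineurial-like, fibroblast-like and pericyte-like cells 1 of 6, 2 of 2 and 1 of 1 myeloid markers tested were lower. Plasma cell markers, of a cell known for abundant ER, made up at most 0.00568% of UMIs in blood ECs and 0.00226% in lymphatic ECs. The dissociation genes, of 18 tested, were higher and lower in 1 and 3 in blood, 3 and 5 in lymphatic, 3 and 1 in perineurial-like and 0 and 0 in pericyte-like cells. In the same order 15.5%, 11.9%, 10.2% and 3.07% of all genes were called higher. In blood and pericyte-like cells neither count stood above its share of all genes. The part of these lists in the members' changes was not tested.

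With 2 mice per group the p-values set each difference against a spread between these mice that edgeR estimates by pooling across genes. They do not rest on the spread of each gene alone. Of the calls in the KO, those that stood whichever single library was left out were 15 of 18 in blood, 8 of 15 in lymphatic, 12 of 18 in perineurial-like, 20 of 24 in fibroblast-like and 1 of 6 in pericyte-like cells. The other calls were lost as follows, with the log2 fold change that remained. In blood ECs they were Dnajb9, Ddit3 and Xbp1, as given with their values. In lymphatic ECs they were Pdia3 (-0.44), Ssr2 (-0.35), Sec61a1 (-0.49), Manf (-0.37) and Atf4 (-0.33) without WT telogen S1, Ssr3 (0.52), Ssr2 (-0.50), Sel1l (0.57) and Atf4 (-0.45) without WT telogen S2, Atf4 (-0.37) without KO S1, and Ssr2 (-0.30) without KO S2. In perineurial-like cells they were Hspa5 (-0.76), Ppp1r15a (0.94), Sec61g (-0.97), Canx (-0.85) and Ssr1 (-0.76) without WT telogen S1, Hspa5 (-1.04), Ppp1r15a (0.55), Sec61g (-0.82), Canx (-0.82) and Ssr1 (-0.81) without WT telogen S2, and Pdia4 (-1.40), Ppp1r15a (0.27) and Ssr1 (-0.88) without KO S1. In fibroblast-like cells they were Edem1 (-1.58), Xbp1 (-0.76), Ero1l (-1.15) and Dnajc3 (-0.98) without WT telogen S1, Edem1 (-1.49), Xbp1 (-0.85) and Ero1l (-1.39) without WT telogen S2, Edem1 (-0.92) without KO S1, and Ero1l (-0.86) without KO S2. In pericyte-like cells they were Pdia3 (-1.11), Sec61b (-1.71), Pdia4 (-2.67) and Calr (-1.38) without WT telogen S1, Pdia3 (-1.34), Calr (-1.59) and Sdf2l1 (0 KO UMIs) without WT telogen S2, and Pdia4 (-3.02) without KO S1.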

How the data were processed

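The deposited files hold unnormalized UMI counts, with genes in rows and cells in columns. Per the labels and methods, the authors digested dorsal skin with collagenase and Dispase, removed dead cells by a viability stain, sorted tdTomato+ cells, made Chromium 3′ v3 libraries and counted UMIs with Cell Ranger 6.0.1 on mm10. Mouse sex was not considered, and no deposited column lacked a sample (0 columns).

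As the authors did, cells were kept that had between 200 and 5000 genes detected and less than 10% of UMIs from mitochondrial genes. After log-normalization, 3000 variable genes, 30 principal components and Harmony correction between libraries in a numpy implementation, Leiden clusters at a resolution of 0.6 were named from markers (at least 3 markers, 2-fold above other cells, in at least 25% of cells). The 34 genes and the pathway lists, 126 genes in all, were kept out of the clustering. The automatic doublet threshold of Scrublet marked 0.09% to 1.24% of cells per library, under 0.5% in most libraries, so doublets were left in, and the highest 5% of scores were removed as an alternative. A cluster led by Alpl, Nebl and Pi16 was left unnamed.

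UMIs were summed per library and class. Levels are CPM, UMIs scaled to a common library total, with TMM factors set within each class. This scaling was chosen after the counts of non-overlapping members under factors set over all classes had been seen. It sets no common scale for composition between classes. Sums were filtered with filterByExpr, normalized by TMM and tested with the quasi-likelihood F test of edgeR 4.0.16 in R 4.3.3, 2 libraries against 2, and p-values were adjusted across every gene tested (Benjamini-Hochberg). A call needed a fold change above 1.3 with an adjusted p below 0.05. Comparisons of classes and interactions had the library as a block. Genes with 0 counts in a group are given as a bound from 3 counts. The edgeR test of 2 libraries against 2 was tried on simulated counts for the blood EC, perineurial-like and fibroblast-like sums. The comparisons with a library block, the interactions and the clustering were not simulated. Alternatives were DESeq2 1.42.0, DESeq2's size factors, no filter on low counts, a limit of 5% mitochondrial UMIs, no likely doublets, a resolution of 1.2, all 6 libraries in 1 fit, the replicate number as a block and each library left out.

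The members and lists were chosen with earlier results of these data known. Named were the called members of each comparison (at most 20, by p), the levels of Hspa5, Xbp1, Atf4, Ddit3, Herpud1 and Sec61b, and of the other lists at most 3 rises and 3 falls. Other members and Col3a1, Fos, Cdh5 and Acvrl1 were named after their values were seen. Lists other than the members were folding and quality control, UPR sensors, translocation and glycosylation, ATF4 targets, dissociation genes, secreted matrix cargo, and myeloid and plasma cell markers. Python 3.11.15 with scanpy 1.11.5 and leidenalg 0.10.2 was used.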

Additional observations from a re-analysis of the deposited data

Results flagged for a closer look

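The response to the KO differed between perineurial-like cells and blood ECs for 12 members and between lymphatic ECs and blood ECs for 16, by the interaction term of the edgeR fit (adjusted p under 0.05), and each value is the difference of the 2 log2 fold changes. In perineurial-like cells the response was more negative for Sec61b (-1.87), Manf (-1.83), Pdia6 (-1.55), Xbp1 (-1.39), Dnajb11 (-1.33), Kdelr2 (-1.26), Ddit3 (-0.93), Herpud1 (-0.84), Hspa5 (-0.82), Hsp90b1 (-0.77) and Sec61g (-0.76), and more positive for Kdelr3 (1.66). Kdelr3 fell further in blood ECs. Calls that were lost when 1 library was left out were Hspa5, Kdelr2, Herpud1, Hsp90b1, Ddit3, Sec61g, Kdelr3 and Dnajb11 without WT telogen S1, Hspa5, Kdelr2, Herpud1, Hsp90b1, Ddit3, Sec61g, Pdia6, Kdelr3 and Dnajb11 without WT telogen S2, Herpud1, Sec61g, Pdia6, Kdelr3 and Dnajb11 without KO S1, and Kdelr2, Hsp90b1, Ddit3 and Dnajb11 without KO S2 (adjusted p from 0.0504 to 0.607).

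In lymphatic ECs the response was more negative for Dnajb9 (-1.39), Herpud1 (-1.17), Xbp1 (-1.09), Ddit3 (-0.93), Hspa5 (-0.65) and Atf4 (-0.50). It was more positive for Kdelr3 (1.88), Creld2 (1.12), Spcs2 (1.01), Sec61b (0.65), Ssr2 (0.62), Pdia6 (0.61), Sec61g (0.58), Kdelr2 (0.57), Ssr3 (0.56) and Ssr1 (0.51). Lost when 1 library was left out were Ssr3, Pdia6, Ssr1, Kdelr3, Atf4 and Creld2 without WT telogen S1, Hspa5, Ssr3, Ssr2, Sec61b, Kdelr2, Sec61g, Ssr1, Kdelr3 and Atf4 without WT telogen S2, Ssr1 and Atf4 without KO S1, and Kdelr2, Pdia6, Ssr1, Kdelr3 and Creld2 without KO S2 (adjusted p from 0.0503 to 0.31). The perineurial-like KO sums rest on 80 and 55 cells.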

How the results depend on the processing

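The 222 called member values were recomputed 2679 times under the alternatives. The direction and the call were kept in 2429, the call was lost in 247 and the sign turned in 3. The 3 were in blood ECs fitted by subtype, Ddit3 in artery-like (-0.17) and capillary-like cells (-0.095) and Dnajb9 in capillary-like cells (-0.14), in the KO. The cause was not tested for any change given here, apart from fewer cells or libraries where a subset was fitted.

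Counts of called members moved by over 1.5 times as follows. With DESeq2 they were 2 for the stage in blood ECs and 5 and 7 for the KO interactions of perineurial-like and lymphatic cells. Without the filter on low counts they were 3, 8 and 5 for the stage in lymphatic, perineurial-like and fibroblast-like cells, 10 for the KO in pericyte-like cells, 7 for pericyte-like against blood ECs and 2 for the stage interaction of perineurial-like cells. Under 5% mitochondrial UMIs they were 0 for the stage in perineurial-like cells and 2 for pericyte-like against blood ECs. All 6 libraries in 1 fit gave 0 for the stage in perineurial-like cells, artery-like cells alone gave 10 for the KO, and a resolution of 1.2 gave 7 for the KO interaction of perineurial-like cells. With the KO libraries, lymphatic, fibroblast-like and pericyte-like cells against blood ECs gave 9, 16 and 8. The number of all genes called moved too, with DESeq2 from 1 to 127 for the stage in blood ECs, from 5 to 84 in fibroblast-like cells and from 3743 to 2146 for the KO in blood ECs. For the other settings it is not given, so those counts do not set the members apart from other genes.

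No label ties the replicate numbers to a shared batch, and the correlations given next cannot exclude one. Deviations of same-numbered samples correlated between -0.053 and 0.022, apart from 0.165 (stage) and -0.161 (KO) in pericyte-like cells. With the replicate block 7 members instead of 1 were called for the stage in perineurial-like cells, and 4 instead of 6 for the KO in pericyte-like cells (8 with the numbers crossed). The share of all genes called with a block is not given, so these counts do not set the members apart from other genes.

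Leaving out 1 library, where a lone library is assumed to vary like the other group, gave 15 to 19 members for the KO in blood ECs, 11 to 17 in lymphatic, 13 to 19 in perineurial-like, 21 to 25 in fibroblast-like and 1 to 8 in pericyte-like cells. For the stage it gave 0 to 4, 1 to 5, 0 to 6, 0 to 2 and 0 to 1 in the same order. Against blood ECs it gave 13 to 16 in lymphatic, 13 to 15 in perineurial-like, 23 to 25 in fibroblast-like, 3 to 5 in pericyte-like and 24 to 30 in myeloid-like cells, and 26 to 27 for fibroblast-like against perineurial-like cells. The interactions gave 3 to 11 and 7 to 15 for the KO and 0 to 2 and 0 to 1 for the stage in perineurial-like and lymphatic cells. These ranges stand without the share of all genes called in the same fits. The KO sums of perineurial-like, fibroblast-like and pericyte-like cells held 180960 to 487028 UMIs, which limits what can be detected there.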
